A study of Homo sapiens with 33 samples.

Results

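The genes described here encode the machinery that copies DNA, 49 genes chosen by name from a working list of replication factors and looked up in 3 deposited tables. All 49 were found in each table, out of 14332 entries for the total GABPB1 knockout of A-375 cells, 13310 for that of UM-UC-3 cells and 14160 for the A-375 long-form knockout. The rule that picks them uses gene names and no measured value. GABPB1 is the B subunit of GABP, a transcription factor whose A subunit, GABPA, binds ETS motifs in DNA. It is made in a long form, GABPB1L, and a short form, GABPB1S, and the paralog GABPB2 can take its place.

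The 33 RNA-seq libraries came from 2 human cancer lines, A-375 (melanoma, 20 libraries) and UM-UC-3 (bladder, 13 libraries). Single-cell clones had been edited with CRISPR-Cas9. B1KO clones lack exons 2 to 9 of GABPB1 (4 libraries from 4 clones in each line) and B1X2KO clones lack exon 2 (8 libraries from 5 clones in A-375, 5 from 4 clones in UM-UC-3). The authors joined these 2 designs as the total knockout, B1TKO, which makes 12 libraries from 9 clones in A-375 and 9 from 8 clones in UM-UC-3. B1LKO clones, in A-375 alone, lack exon 9, which the long form uses (2 libraries from 2 clones). Controls were ROSA26_KO clones, edited at a safe-harbour locus (4 libraries from 3 clones in A-375, 3 from 3 clones in UM-UC-3), and unedited parental cells (2 libraries of A-375, 1 of UM-UC-3). The labels give no drug or other treatment for any group. Several libraries of an edited group can come from 1 clone, and the labels do not say that the libraries of the parental cells are separate cultures.

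The values are fitted log2 fold changes of knockout over control with standard errors (SE, written after ±), 1 per gene and table, from the authors' DESeq2 fits. No value per library was used, so the depth of the libraries is unknown and replicate spread enters only through each SE. A gene was called changed where the authors' Benjamini-Hochberg adjusted p was under 0.05. The table names set each knockout over parental cells, and the control libraries are not listed in them, so each UM-UC-3 change may rest on 1 control library. Implied group levels below were computed from each gene's mean normalized count and fold change, with the parental libraries taken as the controls. With ROSA26_KO libraries among the controls too they shift, for POLA1 in A-375 from 2241 and 1032 (control and knockout) to 1881 and 867, while the ratio stays. The 3 fits have different count scales. Their mean normalized counts sum to 19457299 (A-375 total), 42400454 (UM-UC-3 total) and 53514594 (A-375 long-form). Levels can therefore be compared within 1 fit and not between fits.

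Some facts of the libraries come before the results. The entry GABPB1L fell in all 3 tables, as the labels say (log2 fold changes of -10.60, -12.60 and -12.79 from the authors' deposited tables for A-375 total, UM-UC-3 total and A-375 long-form). A second long-form entry, GABPB1L-DEX2, rose from near 0 to implied levels of 718 in the A-375 total knockout and 887 in that of UM-UC-3. The implied control levels of GABPB1L were 909 and 2705, so long-form RNA was not absent from the total knockouts. The short-form entries do not check the labels of the long-form table: there GABPB1S was higher in the knockout (13.95 ± 1.04) and the entry GABPB1S-DEX2 lower (-12.00 ± 1.48), while in both total tables of the authors GABPB1S belonged to the controls and GABPB1S-DEX2 to the knockouts. With 1 group near 0 these sizes have no fold meaning. GABPA and GABPB2 rose in both total knockouts and were not called in the long-form knockout (adjusted p 0.552 and 0.695 from the authors' deposited table). Of the lineage markers, SOX10 (mean normalized count 14704), S100B and S100A1 were present in A-375, where MLANA and TYR have no entry in the total table used here. SOX10, S100B and S100A1 also had entries in UM-UC-3, where the highest mean of the melanocyte list was 357. UM-UC-3 had KRT8 (2449), KRT18 (8029) and PPARG (990), but of the uroplakins only UPK1A (35.3) had an entry. KRT8, KRT18 and PPARG were also counted in A-375 (1064, 4835 and 934), so they do not tell the lines apart. In the UM-UC-3 knockout some marker genes were called beside the replication genes, where 17% of all genes were called higher and 14.2% lower. Of 7 melanocyte genes measured, 2 rose (MITF at 1.47 ± 0.30 and DCT at 2.20 ± 0.54, list median 1.14). Of 6 urothelial and epithelial genes, 4 rose (PPARG at 1.15 ± 0.32, KRT7, GATA3 and UPK1A) and 1 fell (KRT18 at -0.67 ± 0.20). None of either list was called in the A-375 total knockout, with 1 of each at an unadjusted p under 0.05. Of the leukocyte list, PTPRC, CD3E and CD14 had no entry in any table used here, and 2 genes were measured in each. CD68, a lysosomal glycoprotein used as a macrophage marker, was 1 of them and rose in both total knockouts (1.43 ± 0.34 in A-375 and 1.29 ± 0.14 in UM-UC-3 from the authors' deposited tables). The other leukocyte gene measured lay below 0 in both, at -0.80 in A-375 and -0.57 in UM-UC-3, and was not called. The part of these markers in the results below was not tested.

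Replication begins when the origin recognition complex (ORC), CDC6 and CDT1 load the MCM2-7 ring onto DNA in G1. In S phase CDC45 and the GINS complex turn that ring into an active helicase, polymerase alpha-primase lays down primers, and polymerases epsilon and delta extend the leading and lagging strands, held on DNA by the PCNA clamp that the RFC complex loads. Most of these genes are classical targets of the E2F factors, which switch them on as cells pass from G1 into S. NF-Y often binds the same promoters, and ETS motifs, the kind that GABP reads, are common in promoters of housekeeping genes.

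Promoter sequence was taken from RefSeq (GRCh38.p14) as a window from 250 bases before to 50 bases after each start, and 43 of the 49 genes matched. MCM4, MCM5, GINS4, POLD3, RPA2 and RPA3 had no match and are named only. The motifs searched, on both strands, were CCGGAAG for GABP and other ETS factors, TTCCCGC and TTTGGCGC for E2F, TTTGAA for the cell cycle homology region (CHR) and CCAAT for NF-Y. A gene counted as holding a motif if any of its windows did. The 4 stretches below are shown because POLA1, MCM3 and E2F2 were called lower in both cell lines and GINS2 had the largest fold decrease of the 49 genes in UM-UC-3. POLE2, also called lower in both, is not shown because the rule on exons given next leaves 42 of its 250 bases. Each runs 5′ to 3′ along the gene's strand from 250 bases before the RefSeq start, and stops at the start or before the first base that a GENCODE exon covers. Capitals mark matches to the ETS, E2F and NF-Y motifs.
POLA1 (chrX:24693668-24693917, forward strand): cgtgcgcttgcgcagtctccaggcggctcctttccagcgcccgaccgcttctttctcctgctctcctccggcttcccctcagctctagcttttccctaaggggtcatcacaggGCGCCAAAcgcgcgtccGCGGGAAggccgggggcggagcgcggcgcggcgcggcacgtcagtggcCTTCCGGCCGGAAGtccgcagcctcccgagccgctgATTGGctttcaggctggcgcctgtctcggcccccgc
GINS2 (chr16:85689000-85689204, reverse strand): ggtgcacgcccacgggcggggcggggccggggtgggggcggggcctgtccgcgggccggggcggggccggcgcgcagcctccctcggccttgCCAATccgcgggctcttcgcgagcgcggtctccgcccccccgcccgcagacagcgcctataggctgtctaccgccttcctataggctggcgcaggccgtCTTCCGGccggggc
MCM3 (chr6:52284882-52284992, reverse strand): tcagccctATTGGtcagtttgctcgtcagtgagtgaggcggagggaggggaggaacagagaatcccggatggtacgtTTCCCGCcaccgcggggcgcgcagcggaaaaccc
E2F2 (chr1:23531234-23531483, reverse strand): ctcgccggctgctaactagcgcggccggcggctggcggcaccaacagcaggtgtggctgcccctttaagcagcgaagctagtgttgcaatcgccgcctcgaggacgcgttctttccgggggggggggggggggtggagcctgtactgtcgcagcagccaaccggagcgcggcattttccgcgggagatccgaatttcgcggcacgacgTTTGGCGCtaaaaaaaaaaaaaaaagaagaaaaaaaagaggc

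POLA1, on chromosome X (24693919 to 24996986, hg38), had 2 ETS motifs back to back, on opposite strands, at positions -72 and -65 from the start. The same stretch held both E2F motifs, at -137 and -120, and an NF-Y motif at -36. GINS2, on chromosome 16 (85676198 to 85690073), had an ETS motif at -59 and an NF-Y motif at -158. Its stretch lies inside this annotated span, downstream of the 5′ end at 85690073, so these positions count from a RefSeq start within the gene. In MCM3, on chromosome 6 (52264009 to 52284881), the stretch held an NF-Y motif at -242 and an E2F motif at -173. It stops at the annotated 5′ end, 139 bases before the RefSeq start, so MCM3 positions also count from a start within the gene. In E2F2, on chromosome 1 (23506430 to 23531220), the stretch held an E2F motif at -42. Of these 4, POLA1 had all 3 kinds of motif in the sequence shown. Closer to the start than the bases shown, GINS2 also had an E2F motif, at -31, and MCM3 had NF-Y motifs at -120 and -84 and an E2F motif at -23.

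Across the 43 matched genes, 27 (62.8%) held an E2F motif of either kind, against 13.4% of the 11016 genes that were both in the deposited tables and in the promoter table and 8.5% of all 27305 genes in it. TTCCCGC was in 18 of the 43 (41.9%, against 12.3% of the measured genes) and TTTGGCGC in 10 (23.3%, against 1.33%). The NF-Y motif was in 27 (62.8%, against 43%). The ETS motif was in 5, POLA1, RFC4, GINS2, GINS3 and PRIM2 (11.6%, against 20.8% of the measured genes), and the CHR motif in 1, POLE3 (2.33%, against 13.8%). A match describes the letters in the window and is no binding site by itself.

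In the A-375 total knockout, 6 of the 49 genes were called lower and none higher: POLA1, PRIM2, ORC2, E2F2, POLE2 and MCM3. Of all genes tested there, 5.74% were called lower and 5.07% higher. The fold changes of 46 of the 49 lay below 0, with a median of -0.56 and a range of -1.47 to 0.12, where 54.6% of all genes lay below 0 and the median was -0.05. Among genes with mean counts in the same range, 56.4% lay below 0. At an unadjusted p under 0.05, 13 of the 49 (all lower) and 25.3% of all genes passed. In RNA of whole cultures, fewer cells in S phase and less RNA per cell cannot be told apart.

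In the UM-UC-3 total knockout, 37 of the 49 were called lower and none higher, where 14.2% of all genes were called lower and 17% higher. The median was -0.79, the range -1.72 to 0.18, and 47 of 49 lay below 0, against 47.3% of all genes. At an unadjusted p under 0.05, 40 of the 49 (all lower) and 41.2% of all genes passed. The largest decreases were those of GINS2, MCM3, FEN1, CLSPN and E2F2. Their UM-UC-3 levels in the knockout were 0.304, 0.338, 0.395, 0.401 and 0.402 of control, from the authors' deposited table.

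In the A-375 long-form knockout no member was called by the authors' DESeq2 test in either direction, and none by the deposited q-value. There 0.664% of all genes were called lower, 0.24% higher and 0.904% in either direction. At an unadjusted p under 0.05, 14 of the 49 passed, all of them higher, against 10.9% of all genes in either direction. The fold changes of 48 of 49 lay above 0 (median 0.38, range -0.02 to 0.79). Of the genes with mean counts in the same range, 60.4% lay above 0. This table rests on 2 knockout libraries. The mitosis genes described below also lay above 0 in 34 of 35 cases there (median 0.23), and their part in this result was not tested. The A-375 tables may share control libraries, so their values are set side by side and not compared.

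**Figure D1:**
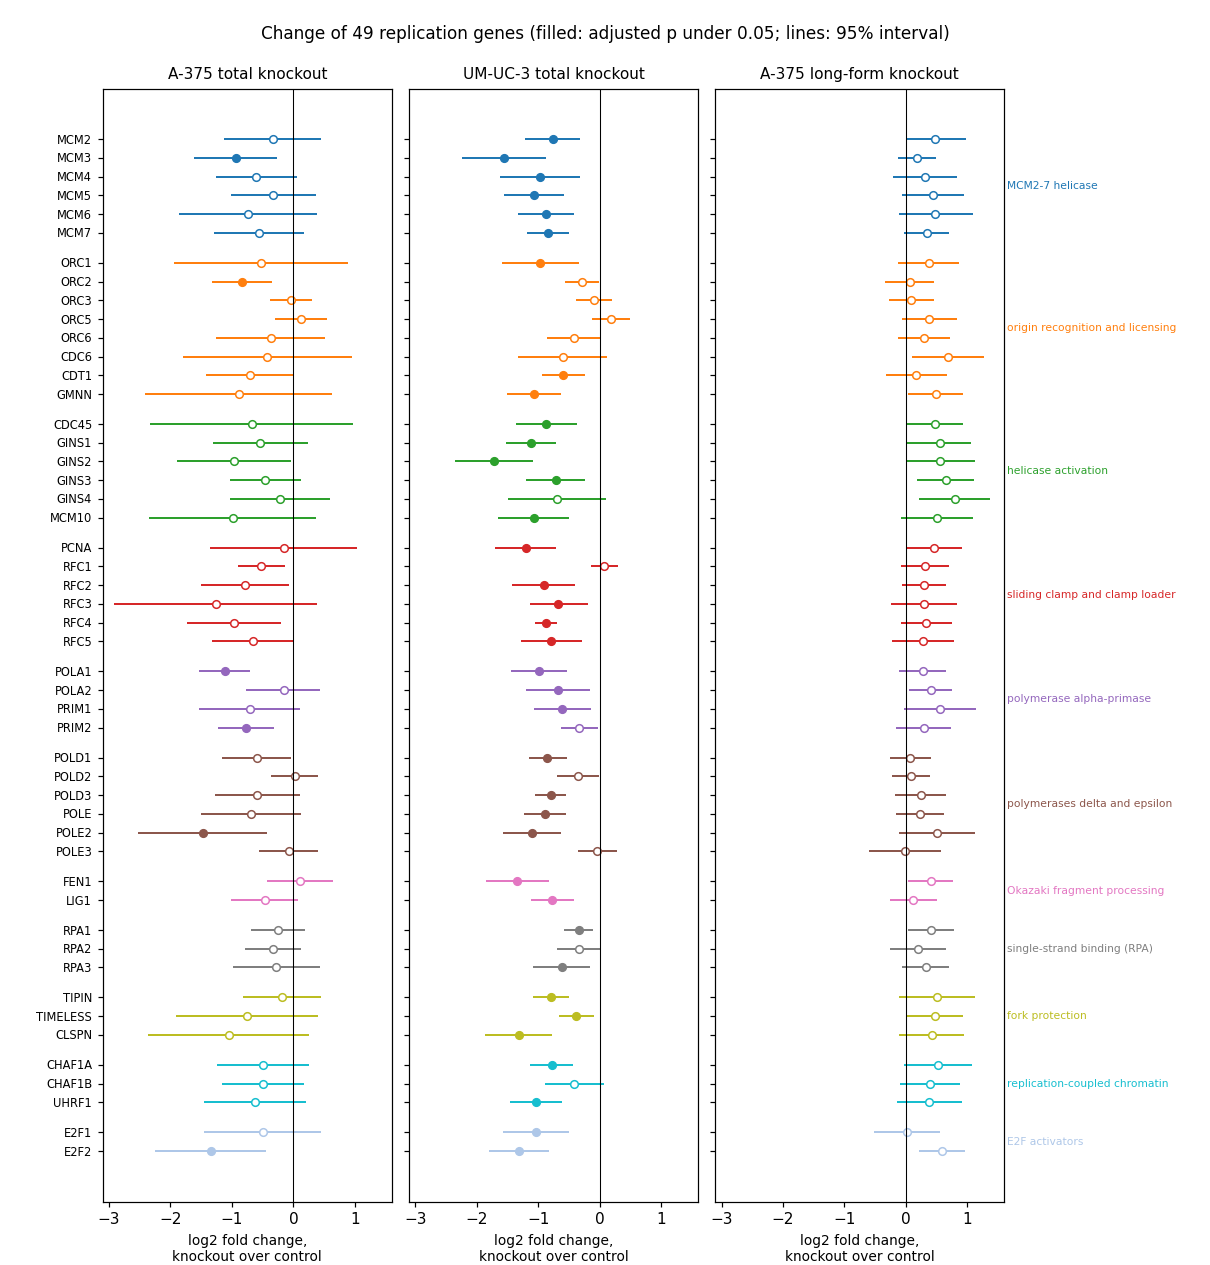
Log2 fold change of each of the 49 genes in the 3 deposited tables, with 95% intervals as lines, by role in replication. Filled points passed an adjusted p of 0.05: 6 in the A-375 total knockout, 37 in UM-UC-3 and none in the long-form knockout, where 48 of 49 points lie right of 0.

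The MCM2-7 ring is the core of the replicative helicase, 6 related subunits that encircle DNA. All 6 fell in UM-UC-3 and 1, MCM3, fell in A-375 (group medians -0.92 and -0.58). MCM3 had an implied level of 14391 normalized counts in UM-UC-3 controls and 4871 in the knockout, and of 3757 and 1954 in A-375. Its log2 fold change was -1.56 ± 0.34 (adjusted p 7.54e-05) from the authors' deposited UM-UC-3 table and -0.94 ± 0.34 (adjusted p 0.0485) in their A-375 table. The A-375 call of MCM3 ended with fold changes centred on the median of all genes (adjusted p 0.0651). The smallest adjusted p of the ring in UM-UC-3 was that of MCM7 (28316 to 15798), the subunit with the most counts per kilobase in that line, at -0.84 ± 0.17 (adjusted p 1.13e-05) from the authors' deposited table. MCM5 (9456 to 4501) and MCM6 (7975 to 4345) changed by -1.07 ± 0.24 (adjusted p 9.94e-05) and -0.88 ± 0.23 (adjusted p 0.00107) in that deposited table of the authors, and MCM2 and MCM4 by -0.76 ± 0.22 and -0.97 ± 0.32. In A-375 the 5 subunits other than MCM3 had fold changes of -0.33 to -0.74 and none was called. In the long-form table all 6 lay above 0, from 0.18 (MCM3) to 0.48 (MCM2 and MCM6), uncalled.

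The next step is origin recognition and licensing. Of its 8 genes, 3 fell in UM-UC-3 (ORC1, CDT1 and GMNN) and 1 in A-375 (ORC2), with group medians of -0.50 and -0.48. GMNN encodes geminin, the inhibitor that keeps CDT1 from loading more MCM rings after S phase begins. Its UM-UC-3 level went from 2170 to 1034, a log2 fold change of -1.07 ± 0.21 (adjusted p 1.37e-05) from the authors' deposited table, and CDT1 itself went from 3504 to 2328 (-0.59 ± 0.17, adjusted p 0.00332). ORC1, the subunit whose level follows the cell cycle, changed by -0.97 ± 0.31 (adjusted p 0.0087) from the authors' deposited UM-UC-3 table. In A-375, ORC2 went from 811 to 455 (-0.83 ± 0.24, adjusted p 0.0119 from the authors' deposited table), while in UM-UC-3 it went from 2414 to 1977 and was not called (-0.29 ± 0.14, adjusted p 0.0915). The ORC2 changes in the 2 lines differed by 0.55 ± 0.28 (adjusted p 0.196), which did not pass.

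Other licensing genes were not called in either line. The core ORC subunits ORC3 and ORC5 had fold changes of -0.09 ± 0.14 and 0.18 ± 0.15 from the authors' deposited UM-UC-3 table and of -0.04 ± 0.16 and 0.12 ± 0.21 in their A-375 table. The 95% interval of ORC3 in UM-UC-3 ran from -0.37 to 0.19. ORC6 (-0.41 ± 0.22, adjusted p 0.135) and the loader CDC6 (-0.60 ± 0.36, adjusted p 0.199) lay below 0 without a call, from the authors' deposited UM-UC-3 table. CDC6 had the second largest fold change of the 49 in the long-form table (0.68 ± 0.29, unadjusted p 0.0189, adjusted p 0.339 from the authors' deposited table).

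Of the 6 genes that activate the helicase, 5 fell in UM-UC-3 and none in A-375 (medians -0.97 and -0.61). The GINS complex, 4 subunits that bind the ring with CDC45, included the largest decrease of all 49: GINS2 went from 1362 to 414 in UM-UC-3, -1.72 ± 0.31 (adjusted p 1.36e-06) from the authors' deposited table. GINS2 in A-375 went from 774 to 397, and its log2 fold change of -0.96 ± 0.46 was not called (adjusted p 0.166 from the authors' deposited table). GINS1 fell by 1.12 ± 0.20 (log2; adjusted p 1.19e-06), from 5841 to 2693, from the authors' deposited UM-UC-3 table. GINS3 was also called there (-0.71 ± 0.24, adjusted p 0.012), while GINS4 was not (-0.69 ± 0.40, adjusted p 0.175), with nearly the same fold change and a larger error. CDC45 and MCM10, a factor that helps start the fork, changed by -0.87 ± 0.25 (adjusted p 0.00325) and -1.07 ± 0.29 (adjusted p 0.00144) from the authors' deposited UM-UC-3 table. In A-375, MCM10 had a fold change of similar size, -0.99, with an SE of 0.69. This group had the highest median of the long-form table (0.55), and 5 of its 6 genes were among the 14 at an unadjusted p under 0.05. GINS4 was the highest of all 49 there (0.79 ± 0.28, unadjusted p 0.00549, adjusted p 0.199 from the authors' deposited table).

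PCNA is the ring-shaped clamp that tethers polymerases, and RFC1 to RFC5 form the loader that opens it. PCNA went from 15824 to 6868 in UM-UC-3, -1.20 ± 0.25 (adjusted p 1.88e-05) from the authors' deposited table, and from 3268 to 2919 in A-375 (-0.16 ± 0.60, adjusted p 0.896). The 95% interval of the A-375 value ran from -1.34 to 1.01 and so includes the UM-UC-3 value, and the difference of -1.04 ± 0.65 was not called (adjusted p 0.306). RFC4 had the smallest adjusted p of the 49 in UM-UC-3, where it went from 3336 to 1823, -0.87 ± 0.08 (adjusted p 6.02e-24 from the authors' deposited table), with the smallest SE of any member. RFC4 in A-375 had a fold change of -0.97 ± 0.38 and was not called (adjusted p 0.0799 from the authors' deposited table). RFC2, RFC3 and RFC5 fell in UM-UC-3 too, with fold changes of -0.91 ± 0.26, -0.67 ± 0.23 and -0.79 ± 0.24 from the authors' deposited table.

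RFC1, the large subunit particular to the PCNA loader, was the 1 subunit of the complex not called in UM-UC-3. Its implied level was 4042 in UM-UC-3 controls and 4255 in the knockout, a log2 fold change of 0.07 ± 0.10 (adjusted p 0.626) from the authors' deposited table. In A-375 RFC1 went from 2710 to 1895, -0.52 ± 0.19, just outside the call (adjusted p 0.0548 from the authors' deposited table). The difference between lines, 0.59 ± 0.22, had an unadjusted p of 0.0062 and an adjusted p of 0.0548, so it was not called either.

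Polymerase alpha-primase makes the RNA-DNA primers that start each strand. All 4 subunits lay below 0 in both lines, with 2 called in A-375 (POLA1 and PRIM2) and 3 in UM-UC-3 (POLA1, POLA2 and PRIM1). POLA1, the catalytic subunit whose promoter stretch with its paired ETS motifs is printed above, went from 2241 to 1032 in A-375 and from 5213 to 2639 in UM-UC-3. Its log2 fold changes were -1.12 ± 0.20 (adjusted p 8.46e-06) and -0.98 ± 0.22 (adjusted p 0.000145) from the authors' deposited A-375 and UM-UC-3 tables, and the lines differed by 0.14 ± 0.30 (adjusted p 0.821). In A-375 POLA1 had the smallest adjusted p of the 49. PRIM2, the regulatory primase subunit, went from 614 to 359 in A-375 (-0.77 ± 0.22, adjusted p 0.00996 from the authors' deposited table) and from 3366 to 2673 in UM-UC-3 (-0.33 ± 0.14, adjusted p 0.0622). Centred on the median of all genes, the UM-UC-3 change of PRIM2 passed, with an adjusted p of 0.0393. POLA2 and PRIM1 changed by -0.68 ± 0.26 (adjusted p 0.0306) and -0.61 ± 0.23 (adjusted p 0.0304) from the authors' deposited UM-UC-3 table.

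Polymerases delta and epsilon copy the bulk of the genome. Of 6 subunits measured, 4 fell in UM-UC-3 (POLD1, POLD3, POLE and POLE2) and 1 in A-375 (POLE2). The catalytic subunits POLD1 (11851 to 6590) and POLE (9657 to 5228) changed by -0.85 ± 0.15 (adjusted p 5.37e-07) and -0.89 ± 0.16 (adjusted p 2.04e-06) from the authors' deposited UM-UC-3 table. POLD3, an accessory delta subunit, went from 4780 to 2759, -0.79 ± 0.12 (adjusted p 3.25e-09), in that table of the authors. POLE2, the second subunit of polymerase epsilon, went from 274 to 98.6 in A-375, the largest fold change of the 49 there (-1.47 ± 0.53, adjusted p 0.0478 from the authors' deposited table), and from 1483 to 690 in UM-UC-3 (-1.10 ± 0.23, adjusted p 4.37e-05). Its A-375 call also ended when fold changes were centred on all genes (adjusted p 0.0582). POLE3, a histone-fold subunit that also sits in a chromatin remodeller, lay near 0 in every table, at -0.08 ± 0.24, -0.04 ± 0.15 and -0.02 ± 0.29 from the authors' deposited tables for A-375 total, UM-UC-3 and A-375 long-form. POLD2 was not called in either total knockout (0.02 ± 0.19 in A-375 and -0.35 ± 0.17, adjusted p 0.0922, in UM-UC-3, from the authors' deposited tables).

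FEN1 and LIG1 finish Okazaki fragments: the flap endonuclease FEN1 trims the displaced primer and DNA ligase 1 seals the nick. FEN1 went from 8107 to 3205 in UM-UC-3, -1.34 ± 0.25 (adjusted p 3.96e-06 from the authors' deposited table). In A-375 it went from 2815 to 3039, 0.11 ± 0.27 (adjusted p 0.829 from the authors' deposited table). The A-375 interval, -0.41 to 0.63, does not reach the UM-UC-3 interval of -1.84 to -0.84. FEN1 was the single member whose change differed between the lines after adjustment, by -1.45 ± 0.37 (adjusted p 0.00341). Over the 12639 genes tested for such a difference 10.4% were called after adjustment. At an unadjusted p under 0.05, 2 of the 49 genes passed, FEN1 and RFC1. The share of all genes at that unadjusted p was not computed. FEN1 (chromosome 11, 61792637 to 61797244, hg38) has exons that overlap exons of FADS2 on the same strand and of TMEM258 on the opposite strand. The largest overlap of a pair of exons is 49 bases with FADS2 and 166 with TMEM258. No source used here says whether reads were counted by strand. Of the 49 genes, 21 have an exon that overlaps an exon of another gene, in 7 of them on the same strand (POLA2, PRIM1, POLD1, POLD3, FEN1, TIPIN and CHAF1B). Reads can be shared in these 7, and in all 21 if the counting ignored strand. LIG1 was called in UM-UC-3 (6076 to 3568, -0.77 ± 0.17, adjusted p 8.69e-05) and not in A-375 (1483 to 1070, -0.47 ± 0.27, adjusted p 0.262), from the authors' deposited tables.

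The RPA trimer coats single-stranded DNA at the fork, and its genes had the group median nearest 0 in UM-UC-3 (-0.34). RPA1 went from 8287 to 6526 (-0.34 ± 0.12, adjusted p 0.0143) and RPA3 from 982 to 637 (-0.62 ± 0.23, adjusted p 0.025) from the authors' deposited UM-UC-3 table. RPA2 had a fold change close to that of RPA1 with a larger error and was not called (-0.34 ± 0.18, adjusted p 0.127 from the authors' deposited table). None of the 3 was called in A-375, where they ranged from -0.34 to -0.25.

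TIPIN, TIMELESS and CLSPN hold a stalled fork together and pass the checkpoint signal from ATR to CHK1. All 3 fell in UM-UC-3. CLSPN, which encodes claspin, went from 5290 to 2121 (-1.32 ± 0.27, adjusted p 2.2e-05), TIPIN from 1653 to 953 (-0.79 ± 0.14, adjusted p 4.38e-07) and TIMELESS from 7704 to 5929 (-0.38 ± 0.14, adjusted p 0.0233), all from the authors' deposited table. In A-375 CLSPN had a fold change of -1.05, with an SE of 0.66, and was not called (adjusted p 0.31 from the authors' deposited table).

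CHAF1A and CHAF1B, subunits of the chaperone that places histones behind the fork, and UHRF1, which carries DNA methylation over to the new strand, gave 2 calls in UM-UC-3 and none in A-375. UHRF1 went from 7656 to 3733 (-1.04 ± 0.21, adjusted p 1.52e-05) and CHAF1A from 4853 to 2823 (-0.78 ± 0.17, adjusted p 4.88e-05), whereas CHAF1B was not called (-0.41 ± 0.24, adjusted p 0.183), all from the authors' deposited UM-UC-3 table. In A-375 the 3 had fold changes of -0.49, -0.49 and -0.62.

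E2F1 and E2F2 encode E2F activators, the factors known for switching on most of the other genes. E2F2 was called in both lines, with an implied level of 552 going to 217 in A-375 and 1769 to 712 in UM-UC-3. Its fold changes were nearly equal: -1.34 ± 0.45 (adjusted p 0.0339) from the authors' deposited A-375 table and -1.31 ± 0.24 (adjusted p 2.18e-06) in their UM-UC-3 table. E2F1 was called in UM-UC-3 alone (3644 to 1782, -1.03 ± 0.27, adjusted p 0.00103), with -0.50 ± 0.48 (adjusted p 0.539) from the authors' deposited A-375 table. The E2F1 changes differed by -0.53 ± 0.55 between lines (adjusted p 0.581). In the long-form table E2F2 had the smallest adjusted p of the 49, on the side of a rise (1202 to 1802, 0.58 ± 0.18, adjusted p 0.102), and E2F1 was at 0.01 ± 0.27, from the authors' deposited table.

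**Figure D2:**
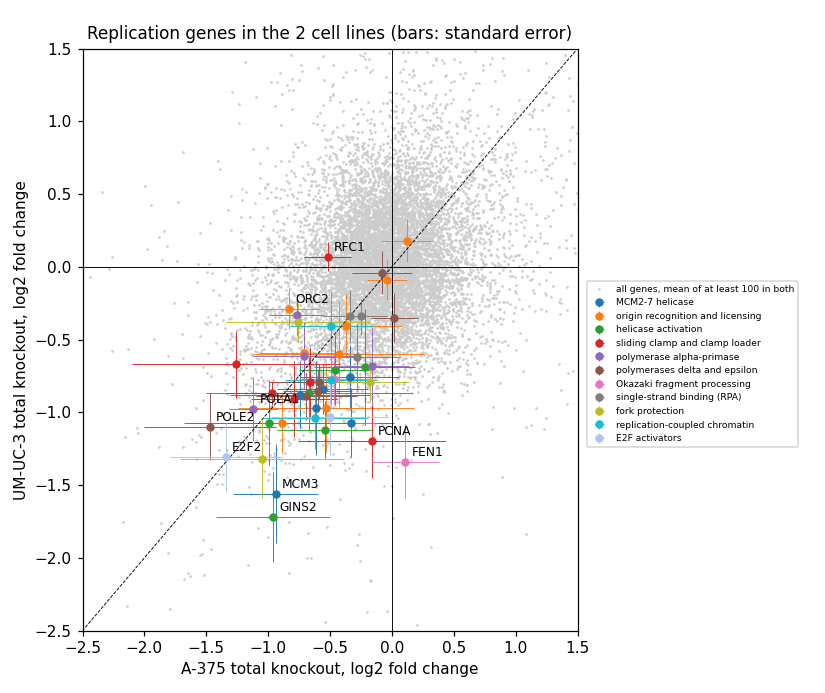
Log2 fold change in the A-375 total knockout (x axis) against that in UM-UC-3 (y axis), with SE bars for the 49 genes in colour by role and, in grey, the 10530 genes that reached a mean count of 100 in each line, of which those beyond the axis limits are not drawn. The dashed line marks equal change; FEN1 lies right of it at 0.11 and -1.34, and RFC1 above it at -0.52 and 0.07.

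Between the cell lines, 4 genes were called lower in both (MCM3, POLA1, POLE2 and E2F2), 2 in A-375 alone (ORC2 and PRIM2), 33 in UM-UC-3 alone and 10 in neither (ORC3, ORC5, ORC6, CDC6, GINS4, RFC1, POLD2, POLE3, RPA2 and CHAF1B). Of the 12639 genes tested in both lines, 2.07% were called lower in both, 3.72% lower in A-375 and not UM-UC-3, 12.5% lower in UM-UC-3 and not A-375, and 81.7% lower in neither. A call in 1 line alone is not a difference between lines. Of the 33, the A-375 95% interval included the UM-UC-3 value in 31 and included no change in 27. FEN1 alone of the 49 was called different. The fold changes of 45 genes lay below 0 in both lines, and 35 of the 49 had the lower fold change in UM-UC-3. The shares of all genes for these 2 counts were not computed. In each line by itself, 54.6% (A-375) and 47.3% (UM-UC-3) of all genes lay below 0. Across the 49 genes the fold changes of the lines had a Pearson r of 0.46 and a Spearman rho of 0.42. Over the 10530 genes that reached a mean of 100 in each line these were 0.36 and 0.24. The points share their libraries within each line, so these are descriptions.

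The errors of the genes differed between the tables. The median SE of the 49 genes was 0.36 in A-375, 0.22 in UM-UC-3 and 0.23 in the long-form table. Genes in the same range of mean count had medians of 0.24, 0.16 and 0.18, and 41, 37 and 44 of the 49 lay above those medians. At the genes' median SE, a call required a log2 fold change of 1.00 in size in A-375, 0.54 in UM-UC-3 and 0.79 in the long-form knockout. For RFC3 in A-375, a fold change of -1.26 came with an SE of 0.84 and an adjusted p of 0.339 from the authors' deposited table. In GMNN, CDC45, ORC1, CDC6 and MCM10 the A-375 SE was 0.69 or more.

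**Figure D3:**
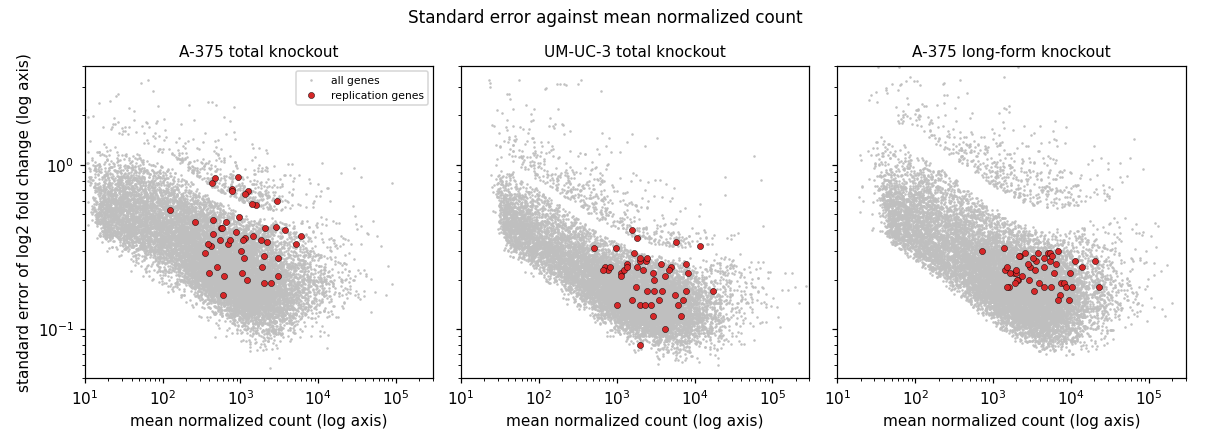
Standard error of the log2 fold change (y, log axis) against mean normalized count (x, log axis) in each table, with the 49 replication genes in red over all genes in grey. In the A-375 total table the red points reach an SE of 0.84 and several lie in the upper band of genes that is set apart from the main cloud.

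Levels differed widely within the machinery. Per kilobase of the longest annotated transcript, the mean normalized count in the A-375 total table ran from 51.1 for E2F2 and 69 for POLE2 to 1957 for MCM7 and 2185 for PCNA. In UM-UC-3 it ran from 158 for E2F2 to 5529 for MCM7 and 5713 for PCNA. PCNA and MCM7 thus stood at the top and E2F2 at the bottom in both lines.

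When the 43 genes with promoter sequence were split by motif, the 5 with an ETS motif had median fold changes of -0.96 in A-375 and -0.87 in UM-UC-3, with 2 and 4 called lower. The 38 without it had medians of -0.55 and -0.79, with 4 and 29 called lower. The 27 with an E2F motif had medians of -0.69 and -0.88, with 4 and 23 called lower, and the 16 without it had -0.52 and -0.55, with 2 and 10. No test was made of these splits.

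Replication factors outside the 49, another 37 genes, gave 4 lower and 1 higher in A-375 and 19 lower and 1 higher in UM-UC-3 (medians -0.59 and -0.54). Among all genes 5.74% were called lower and 5.07% higher in A-375, and 14.2% and 17% in UM-UC-3. SUPT16H, a subunit of the histone chaperone FACT, fell in both lines (-1.09 ± 0.24, adjusted p 0.00036, and -0.72 ± 0.13, adjusted p 7.16e-07, from the authors' deposited A-375 and UM-UC-3 tables). MTBP and TOPBP1, which act with CDC45 loading, also fell in both, TOPBP1 with fold changes of -1.02 ± 0.35 and -0.93 ± 0.14 and MTBP with -1.34 ± 0.40 and -0.73 ± 0.29 from the authors' deposited tables. The topoisomerase gene TOP1 fell in A-375 (-0.58 ± 0.19, adjusted p 0.0326 from the authors' deposited table). The largest of these decreases in UM-UC-3 was DSCC1, part of an alternative clamp loader (-1.97 ± 0.26, adjusted p 6.6e-12 from the authors' deposited table). TONSL (-1.06 ± 0.18) and MCM8 (-0.97 ± 0.16) followed it by p-value, with TOPBP1. The 1 that rose in each line was POLD4, the smallest subunit of polymerase delta (1.12 ± 0.25, adjusted p 0.000544, in A-375 and 0.40 ± 0.13, adjusted p 0.0127, in UM-UC-3, from the authors' deposited tables). None of the 37 was called in the long-form knockout by DESeq2, with 2 at an unadjusted p under 0.05.

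Regulators above the machinery were looked up as 25 other E2F, RB and DREAM genes. Of these, 2 were lower and 1 higher in A-375, and 6 lower and 3 higher in UM-UC-3. The 1 higher in A-375 was CDKN1A, which is also in the p53 list. Calls in both directions were not particular to these regulators. The shares over all genes were 5.74% lower and 5.07% higher in A-375, and 14.2% and 17% in UM-UC-3. CDKN1A, the p21 inhibitor of cyclin-dependent kinases, rose in A-375 (1.69 ± 0.29, adjusted p 2.03e-06) and was 0.33 ± 0.27 (adjusted p 0.361) in UM-UC-3, from the authors' deposited tables. RB1, whose protein holds E2F in check, fell in A-375 (-1.26 ± 0.24, adjusted p 2.99e-05) and was at 0.06 ± 0.21 in UM-UC-3, from the authors' deposited tables. E2F5 fell in A-375 (-1.21 ± 0.42, adjusted p 0.0376), and E2F8 was not called (-1.50 ± 0.61, adjusted p 0.0889), from the authors' deposited table. The UM-UC-3 table of the authors has MYBL2 (-1.35 ± 0.25) and CDC25A (-1.06 ± 0.26) lower and the inhibitor CDKN1B (0.71 ± 0.15) and the pocket protein RBL2 (0.44 ± 0.11) higher.

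Some genes of mitosis and of the p53 response were called beside the replication genes, and their part in these results was not tested. Their counts read against 5.74% of all genes lower and 5.07% higher in A-375, and 14.2% and 17% in UM-UC-3. Of 35 mitosis genes, 1 fell in A-375, CKAP2 (-1.11 ± 0.37, adjusted p 0.0319 from the authors' deposited table), and 14 fell in UM-UC-3, among them SPC24 (-1.28 ± 0.26), ESPL1 (-0.87 ± 0.25), NDC80 (-0.81 ± 0.24) and AURKB (-0.81 ± 0.24). Their medians were -0.97 and -0.43, and in A-375 their median SE was 0.65. In A-375 CENPA, CENPE and AURKA had fold changes of -1.13, -0.85 and -0.92 from the authors' deposited table and were not called. Of the p53 targets, 17 of 25 rose and none fell in A-375 (median 0.87), among them DDB2 (0.80 ± 0.15), PLK3 (1.25 ± 0.25) and FDXR (1.19 ± 0.26). In UM-UC-3, 3 of 23 rose (ZMAT3, CCNG1 and TNFRSF10B, at 0.56, 0.57 and 0.55) and 2 fell, POLH at -0.59 ± 0.18 and BAX at -0.33 ± 0.12, from the authors' deposited table. The long-form knockout had no call in the mitosis, regulator or p53 lists by DESeq2, with 0, 2 and 2 genes at an unadjusted p under 0.05.

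**Figure D4:**
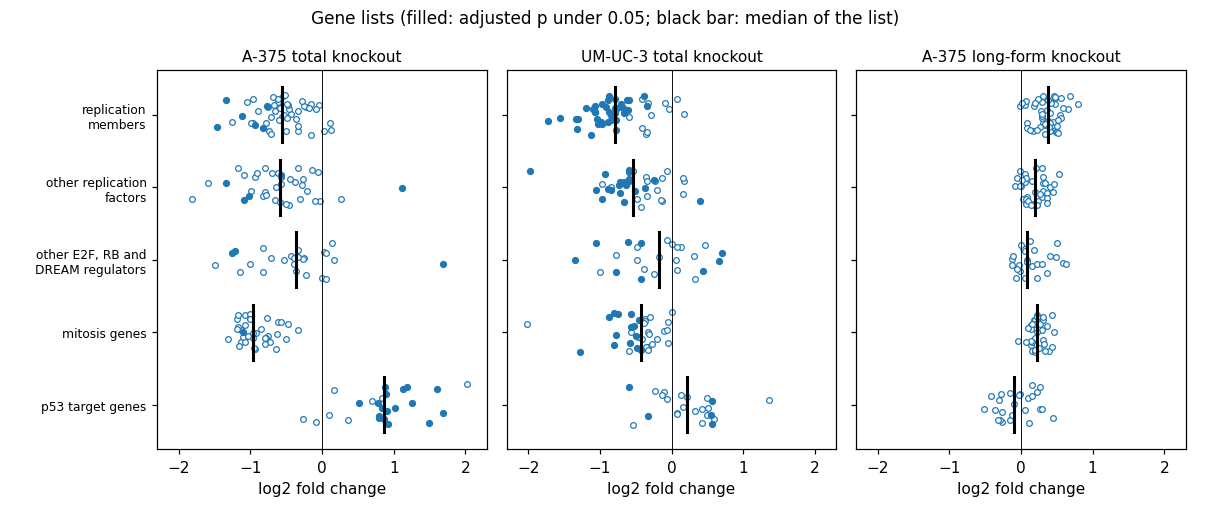
Log2 fold change of each gene (points) in the 49 replication genes and 4 other lists, by table, with filled points at an adjusted p under 0.05 and a black bar at each list's median. The replication genes' medians are -0.56 in A-375, -0.79 in UM-UC-3 and 0.38 in the long-form knockout, and the p53 targets' median is 0.87 in A-375.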

How the data were processed

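RNA was sequenced in 33 libraries, and the labels' cell line and edited locus set the groups. The submitters' processing notes name HISAT2, SAMtools, StringTie, DESeq2 and hg38 and give no versions. Not given in the sources used here were the gene filter, the design formula, the control libraries of each fit and the strand setting of the counting.

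The authors deposited 3 tables of DESeq2 output. Their signal column is the mean over libraries of counts divided by size factors, per the file headers. The deposited log2 columns give the fold change (knockout over control) and the standard error from the authors' fit. A score column holds the deposited Wald statistic. Per the file headers, 3 further columns give its p-value, the Benjamini-Hochberg adjusted p-value and a q-value. The adjusted p recomputed from the deposited p-values differed by 6.98e-05 at most. Depth per sample is unknown, so precision is the deposited standard error. Where nothing says that libraries came from separate cultures, p-values measure only the spread between these libraries.

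Calls used the authors' DESeq2 adjusted p, taken over the whole table, at a threshold of 0.05. To compare cell lines, a gene's 2 fold changes were subtracted and divided by the square root of the sum of their squared errors. The p was 2-sided from the normal distribution, with Benjamini-Hochberg adjustment across 12639 genes whose mean normalized count reached 10 in each line. Group levels were worked out from the mean, the number of libraries and the fold change. Intervals are at 95%. The scripts (Python 3.11.15, pandas 2.3.3, SciPy 1.17.1) were tested on simulated data.

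The 49 genes, the other lists and the tests were chosen with earlier results of these data known. Named with values were members called in either A-375 table, members not called in UM-UC-3, members that differed between lines, up to 4 members of each role and 4 genes of each other list by adjusted p, the GABP subunits and CDKN1A. Other members were named where a role is described in full. Gene places, lengths and overlaps came from GENCODE release 29 on hg38, and promoters from RefSeq on GRCh38.p14. Alternatives tried were centring, mean minimums, the q-value, a threshold of 0.01, a log2 fold minimum of 0.5 and all controls in place of parental ones.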

Additional observations from a re-analysis of the deposited data

Results flagged for a closer look

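Among the replication genes, the other replication factors and the E2F, RB and DREAM regulators, 6 genes changed by different amounts in the total knockouts of the 2 cell lines, by the test of the difference itself (UM-UC-3 minus A-375, log2, Benjamini-Hochberg adjusted over 12639 genes). Of the 49 replication genes this was FEN1, at -1.45 (adjusted p 0.00341). Of the other replication factors it was CHTF8, a subunit of an alternative clamp loader, at -0.56 (adjusted p 0.0189), with changes of -0.10 in A-375 and -0.67 in UM-UC-3. Of the regulators, RB1 differed by 1.32 (adjusted p 0.00177), from -1.26 in A-375 to 0.06 in UM-UC-3. E2F5 differed by 1.67 (adjusted p 0.0106), from -1.21 to 0.46, and RBL2 by 0.77 (adjusted p 0.0183), from -0.33 to 0.44. CDKN1A differed by -1.36 (adjusted p 0.0123), from 1.69 in A-375 to 0.33 in UM-UC-3. Over all genes tested, 10.4% were called different. In the lists beside these, 7 of 23 p53 targets differed, CDKN1A among them and each lower in UM-UC-3, and 0 of 35 mitosis genes (1 at an unadjusted p under 0.05).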

How the results depend on the processing

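The A-375 total knockout had 6 replication genes called lower. At a threshold of 0.01 the count was 2, POLA1 and PRIM2, which follows from the stricter threshold itself. It was 4 after centring on the median of all genes, where MCM3 and POLE2 lost their calls, and 8 by the deposited q-value, which added RFC1 and RFC4. The UM-UC-3 count of 37 ranged from 29 at the threshold of 0.01 to 40 by the q-value, which added ORC2, PRIM2 and POLD2. The long-form knockout had 0 calls in each alternative run, and FEN1 was the 1 difference between lines in each. Means weighted by the inverse squared errors were -0.45, -0.63 and 0.33, beside medians of -0.56, -0.79 and 0.38. No called member reversed in direction in the alternatives run. Uncalled members, among them every member in the long-form knockout, were not checked for a reversal, and those near 0 can change sign with centring. With all control libraries in place of the parental ones, 21 of 147 implied control levels moved, in log2, by no less than the SE of that gene's fold change. The medians of well-expressed genes, subtracted in centring, were -0.04, -0.03 and 0.08. No paired analysis was possible because the deposited tables hold no value per sample, and for that reason leaving out each replicate, another normalization and another count test could not be run. The depth of each library and the clone behind each value limit all results.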
